A study of Mus musculus with 4 samples.

Results

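10 members of the tumor necrosis factor (TNF) superfamily were followed in mouse macrophage-like cells treated with proteasome inhibitors, namely the ligands *Tnf*, *Ltb*, *Lta*, *Tnfsf9* and *Tnfsf10* and the receptors *Fas*, *Tnfrsf1a*, *Tnfrsf1b*, *Tnfrsf10b* and *Ltbr*. These 10 genes, of 20144 that could be named on the array, were picked because *Ltb* and *Tnf* were lower on the inhibitor arrays, so the differences from DMSO that follow are a description of the members and not a test of them. J774.1 cells, an established mouse monocyte-macrophage line, had been cultured for 4 hours with MG132, a proteasome inhibitor, with epoxomicin, an inhibitor of the 20S core particle, or with ONX0914, an inhibitor of the β5 subunit and its immunoproteasome form, each at 1 μM, or with the solvent DMSO. RNA of each culture was hybridized to 1 single-color array, so that there was 1 array per group and no replicate culture. The treatment label of the fourth array reads ONX-0912, whereas its treatment protocol and the Methods of the study name ONX 0914. The array is called ONX0914 here, and which compound it received rests on that reading. The comparison asks how members of the superfamily differed in RNA level after the proteasome was blocked.

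TNF superfamily ligands are trimeric proteins, most of them held in the cell membrane, and they signal by clustering receptors on a neighboring cell. The receptors fall into those with a death domain, which can start caspase activation, and those that only recruit TNF receptor-associated factors (TRAFs) and activate NF-κB. NF-κB itself is released when the proteasome degrades its inhibitor IκB, and macrophages are a main source of TNF.

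A level is given as the background-subtracted signal of a probe, and a difference as log2 of the signal minus the 75th percentile of its array, inhibitor minus DMSO. A difference of 2-fold or more counted as higher or lower, which is 1 on this scale. With 1 array per group no difference has a replicate check and no p-value can be given, and the only error that could be measured was that between the 10 spots of probes printed repeatedly on an array. The median SD of such spots was 0.0555 to 0.0613 on the log2 scale. All members were well above background on all 4 arrays and no spot was saturated. The 3 comparisons share the DMSO array, so they are not independent of each other.

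The promoters of *Tnf* and *Ltb*, which were lower, and of *Tnfsf10*, which was higher, are shown first because these ligands lay on opposite sides of DMSO. RefSeq (assembly GRCm38.p6) gave the 250 bases before the start of 8 of the 10 members, with *Tnfsf9* and *Tnfrsf10b* as the members without an entry. Capitals mark a match to a motif, which is a TATA box in *Tnf* and the NF-κB consensus, on the minus strand relative to transcription, in *Ltb*. The window of *Tnfsf10* held no match to any of the motifs searched. The windows lie at chr17:35202008-35202257 on the minus strand for *Tnf*, at chr17:35194257-35194506 on the plus strand for *Ltb* and at chr3:27316827-27317076 on the plus strand for *Tnfsf10*.

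Tnf: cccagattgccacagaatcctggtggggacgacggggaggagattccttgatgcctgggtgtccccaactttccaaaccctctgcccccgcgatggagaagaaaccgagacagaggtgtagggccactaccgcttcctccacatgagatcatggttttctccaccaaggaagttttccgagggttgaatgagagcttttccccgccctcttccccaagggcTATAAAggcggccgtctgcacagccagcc
Ltb: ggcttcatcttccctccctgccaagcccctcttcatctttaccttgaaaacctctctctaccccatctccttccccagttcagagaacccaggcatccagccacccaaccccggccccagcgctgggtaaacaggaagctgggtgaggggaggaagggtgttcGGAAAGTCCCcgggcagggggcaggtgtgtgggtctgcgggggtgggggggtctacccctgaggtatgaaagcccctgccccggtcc
Tnfsf10: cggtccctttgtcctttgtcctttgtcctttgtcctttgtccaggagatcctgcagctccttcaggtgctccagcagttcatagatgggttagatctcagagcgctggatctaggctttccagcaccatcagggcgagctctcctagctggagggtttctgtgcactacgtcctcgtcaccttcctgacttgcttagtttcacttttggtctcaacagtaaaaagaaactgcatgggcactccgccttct

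4 motifs were searched on both strands, the NF-κB consensus of 10 letters, AP-1 (TGANTCA), the TATA box (TATAAA) and a core of the interferon response element (GAAA, any 2 bases, GAAA). The TATA box of *Tnf* lay 29 to 24 bases before the start, and the NF-κB match of *Ltb* lay 87 to 78 bases before it. Of 32851 promoter windows of the same length, 3.9% held the NF-κB consensus, 6.75% AP-1, 12.4% the TATA box and 2.98% the interferon core. Among the other members, *Lta* had a TATA box 167 to 162 bases before its start, *Fas* an AP-1 match 211 to 205 bases before it and *Tnfrsf1b* an interferon core 10 to 1 bases before it. *Ltb* was thus the only one of the 8 windows with the NF-κB consensus, and no window held more than 1 motif. Such a match is a match of letters and not a measured binding site.

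Among the members, *Ltb* and *Tnf* were at least 2-fold lower under MG132 and under epoxomicin, and *Ltb* alone under ONX0914. With normexp, a model-based correction of the unsubtracted signal, *Tnf* under MG132 came to -0.95 and missed 2-fold. *Tnfsf10* and *Fas* were at least 2-fold higher with each inhibitor. In total 2 of 10 members were lower under MG132, where 3.65% of 13772 genes compared were lower, and 2 were higher, where 7.25% were. With epoxomicin the same 2 and 2 members passed, beside 4.49% lower and 8.41% higher of 13875 genes. With ONX0914 1 member was lower and 2 were higher, beside 1.41% and 3.27% of 13795 genes. Since the members were chosen on these differences, the counts are given beside the background and nothing is read from them. The median difference of the members was -0.04 under MG132, 0.13 under epoxomicin and -0.21 under ONX0914, against -0.02, -0.04 and -0.01 for all genes compared, so as a group they had no common direction.

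**Figure D1:**
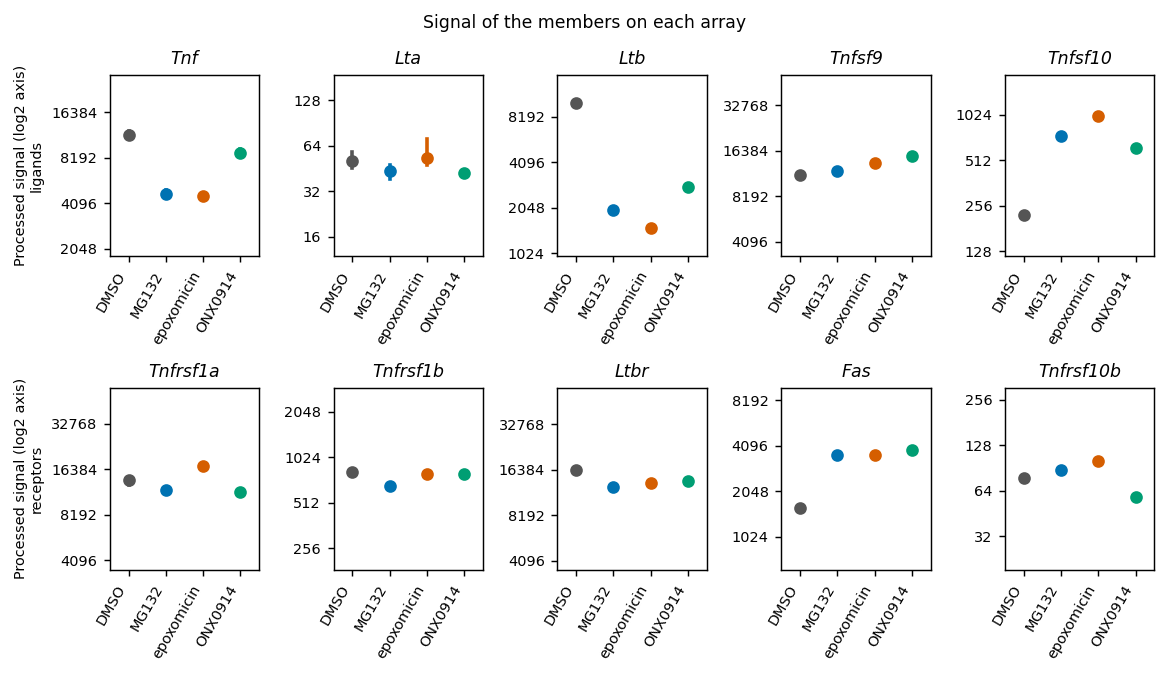
Background-subtracted signal (vertical axis, log2 axis with the same span in every panel) of each member on the 4 arrays, with ligands above and receptors below. A point is the mean signal and a vertical line the range over the 10 spots of *Tnf*, *Lta* and *Tnfrsf1a*, and for *Tnf* and *Tnfrsf1a* most lines are hidden by the point. The signal of *Ltb* was 10100 in DMSO and 1513 to 2800 with the inhibitors, while the inhibitor arrays lay above DMSO for *Tnfsf10* and *Fas*.

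*Tnf* encodes the founding ligand of the family, a pro-inflammatory cytokine that binds both TNF receptors. Its signal was 11610 in DMSO, 4717 under MG132, 4561 under epoxomicin and 8844 under ONX0914. The DMSO array was the highest, the ONX0914 array came next, and the MG132 and epoxomicin arrays were the lowest. The probe was printed 10 times, and its spots ranged from 11080 to 12280 in DMSO, from 4434 to 4985 under MG132, from 4305 to 4722 under epoxomicin and from 8451 to 9306 under ONX0914. Spots of the MG132 and epoxomicin arrays overlapped, and no other pair of arrays did. After scaling, *Tnf* differed from DMSO by -1.11 ± 0.03 under MG132, by -1.37 ± 0.04 under epoxomicin and by -0.36 ± 0.03 under ONX0914 (log2, mean ± SD). Each such SD, here and below, is that of the differences between spots at the same place on 2 arrays. This error covers printing and scanning only. The mean differences are 2.16-fold, 2.59-fold and 1.28-fold lower levels, and with each inhibitor all 10 spots were lower than their counterparts on the DMSO array. In RNA pooled from a culture, fewer *Tnf*-expressing cells and less *Tnf* RNA per cell cannot be told apart.

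*Ltb* encodes lymphotoxin β, the membrane anchor that forms heterotrimers with lymphotoxin α. Its signal was 10100 in DMSO, 1971 under MG132, 1513 under epoxomicin and 2800 under ONX0914, each from 1 spot. Every inhibitor array was far below the DMSO array. The differences were -2.17, -2.76 and -1.81 on the log2 scale, or 4.5-fold, 6.79-fold and 3.52-fold lower. Counted from the lowest difference of all genes compared, *Ltb* held rank 35 under MG132, rank 12 under epoxomicin and rank 30 under ONX0914, whereas *Tnf* held ranks 362, 227 and 1846. *Ltb* was among the 1.01% of 13462 genes that were at least 2-fold lower with all 3 inhibitors.

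*Lta* encodes lymphotoxin α, the secreted partner of lymphotoxin β and a close relative of TNF. Its probe gave a faint signal of 51.0 in DMSO, 43.5 under MG132, 53.0 under epoxomicin and 42.4 under ONX0914, the last from 9 spots because 1 was marked as an outlier. Spots ranged from 45.7 to 58.2 in DMSO and from 38.4 to 47.6 under MG132, and those of epoxomicin (47.6 to 70.5) overlapped both. The spots of ONX0914 (40.1 to 44.3) lay below all those of DMSO in signal. Spot by spot after scaling, the differences were -0.04 ± 0.17 under MG132, 0.03 ± 0.17 under epoxomicin and -0.23 ± 0.15 under ONX0914 (SD), and the first 2 were smaller than the spread between spots. Under MG132 and epoxomicin *Lta* thus stayed below 2-fold while the neighboring *Tnf* and *Ltb* did not, except that normexp gave *Lta* differences of -1.13, -1.22 and, for ONX0914, -1.35, and normexp without outlier spots 0.14, 0.09 and -0.04.

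*Tnfsf9* encodes the ligand of 4-1BB, a costimulatory receptor of T cells. Its signal was 11320 in DMSO, 11990 under MG132, 13510 under epoxomicin and 15120 under ONX0914. The DMSO array was the lowest, and the differences of 0.27, 0.23 and 0.45 stayed below 2-fold. *Tnfsf10* encodes TRAIL, a ligand that can induce apoptosis through its death receptor and is known as an interferon-inducible gene. Its signal was 221.1 in DMSO, 737.1 under MG132, 1009 under epoxomicin and 619.9 under ONX0914, so all inhibitor arrays lay above DMSO. The differences of 1.92, 2.17 and 1.52 correspond to 3.79-fold, 4.49-fold and 2.88-fold higher levels. These sizes depended on the background correction, as *Tnfsf10* came to 0.90, 1.11 and 0.55 with normexp. *Tnfsf10* and *Fas* were among the 2.02% of genes at least 2-fold higher with all 3 inhibitors.

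*Fas* encodes a death receptor whose ligand is made mainly by activated lymphocytes. Its signal was 1587 in DMSO, 3557 under MG132, 3533 under epoxomicin and 3862 under ONX0914. The 3 inhibitor arrays lay close together, and all were above DMSO. The differences of 1.35, 1.13 and 1.32 correspond to 2.55-fold, 2.19-fold and 2.5-fold higher levels. *Fasl*, its ligand, was not well above background on any array.

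*Tnfrsf1a* encodes the death domain receptor of TNF, which most cells carry. Its signal was 13950 in DMSO, 11940 under MG132, 17280 under epoxomicin and 11630 under ONX0914. The epoxomicin array was the highest, and its spots, from 16580 to 18120, lay above all those of DMSO, from 12930 to 14450. The differences were -0.04 ± 0.03 under MG132, 0.28 ± 0.04 under epoxomicin and -0.23 ± 0.03 under ONX0914 (log2, SD over 10 spots). A second probe of the same transcript differed by 0.13, 0.22 and -0.12, so that the probes gave opposite signs for MG132 and the same sign for the other inhibitors.

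*Tnfrsf1b* encodes the TNF receptor without a death domain. Its signal was 816.9 in DMSO, 663.5 under MG132, 795.6 under epoxomicin and 791.8 under ONX0914, and the scaled differences were -0.11, -0.06 and -0.01. *Ltbr* encodes the receptor of the lymphotoxin α and β heterotrimer. Its signal was 16230 in DMSO, 12480 under MG132, 13320 under epoxomicin and 13750 under ONX0914, with differences of -0.19, -0.31 and -0.20. Neither receptor reached 2-fold. *Tnfrsf10b*, the death receptor for TRAIL, had a faint signal of 78.0 in DMSO, 87.8 under MG132, 101.6 under epoxomicin and 58.2 under ONX0914. Its differences of 0.36, 0.36 and -0.39 were on either side of DMSO. They became -0.74, -0.76 and -1.06 with normexp, and that for ONX0914 became 0.08 with normexp without outlier spots. Its direction was thus not settled with any inhibitor.

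Seen as pairs, the ligands *Tnf* and *Ltb* were at least 2-fold lower under MG132 and epoxomicin, and *Ltb* under ONX0914, while the receptors *Tnfrsf1a*, *Tnfrsf1b* and *Ltbr* stayed within 0.31 of DMSO on the log2 scale. *Tnfsf10* was higher while its receptor *Tnfrsf10b* stayed within 0.39, or reached -1.06 with normexp. The members closest to the 2-fold threshold were *Tnf* (1.11) inside and *Tnfrsf10b* (0.36) outside for MG132, *Fas* (1.13) and *Tnfrsf10b* (0.36) for epoxomicin, and *Fas* (1.32) and *Tnfsf9* (0.45) for ONX0914.

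**Figure D2:**
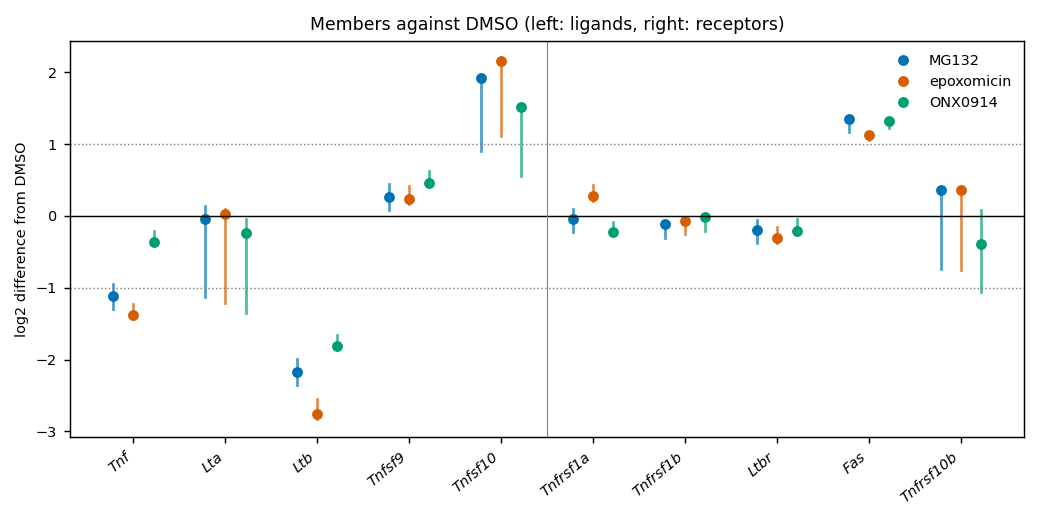
Difference from DMSO (vertical axis, log2) of each member under MG132, epoxomicin and ONX0914, ligands left and receptors right. Points are the values reported and vertical lines the range over 9 other ways of processing, not a replicate error, and dotted lines mark 2-fold. *Ltb* stayed beyond 2-fold in all of them, whereas the lines of *Tnfsf10*, *Lta* and *Tnfrsf10b* are long.

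All inhibitors were used at the same dose for the same time, and their arrays are set side by side here. An equal dose need not block the proteasome to an equal degree, and the arrays do not measure that degree. Compound and degree of inhibition therefore cannot be told apart. Of 3 pairs of inhibitors, 1 gave a member with a 2-fold difference. *Tnf* was 1.02 ± 0.04 higher under ONX0914 than under epoxomicin (log2, SD over 10 spots), which is 2.02-fold and just at the threshold, and 1.56% of 13794 genes were at least 2-fold higher in that pair and 4.38% lower. *Tnf* was 0.76 ± 0.02 higher under ONX0914 than under MG132, and 0.26 ± 0.03 lower under epoxomicin than under MG132, both larger than the spread between spots and both below 2-fold. *Ltb* differed in the same order, by 0.95 between ONX0914 and epoxomicin, by 0.36 between ONX0914 and MG132 and by -0.59 between epoxomicin and MG132. *Fas* differed by 0.19, -0.03 and -0.22 in these pairs, and *Tnfsf10* by -0.64, -0.40 and 0.24. *Tnfrsf10b* differed by -0.74 between ONX0914 and each of the others, at a faint signal of 58.2 to 101.6. Other ways of processing brought this to as little as -0.28 against MG132 and -0.30 against epoxomicin. The median spot signal of the arrays was 67.47 to 76.55. For ONX0914 minus MG132 no member reached 2-fold, beside 1.07% of genes higher and 3.05% lower. For epoxomicin minus MG132 none did either, beside 0.785% higher and 0.719% lower. How far cultures given the same compound would differ was not measured, so none of these values shows that the compounds act alike or differently.

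**Figure D3:**
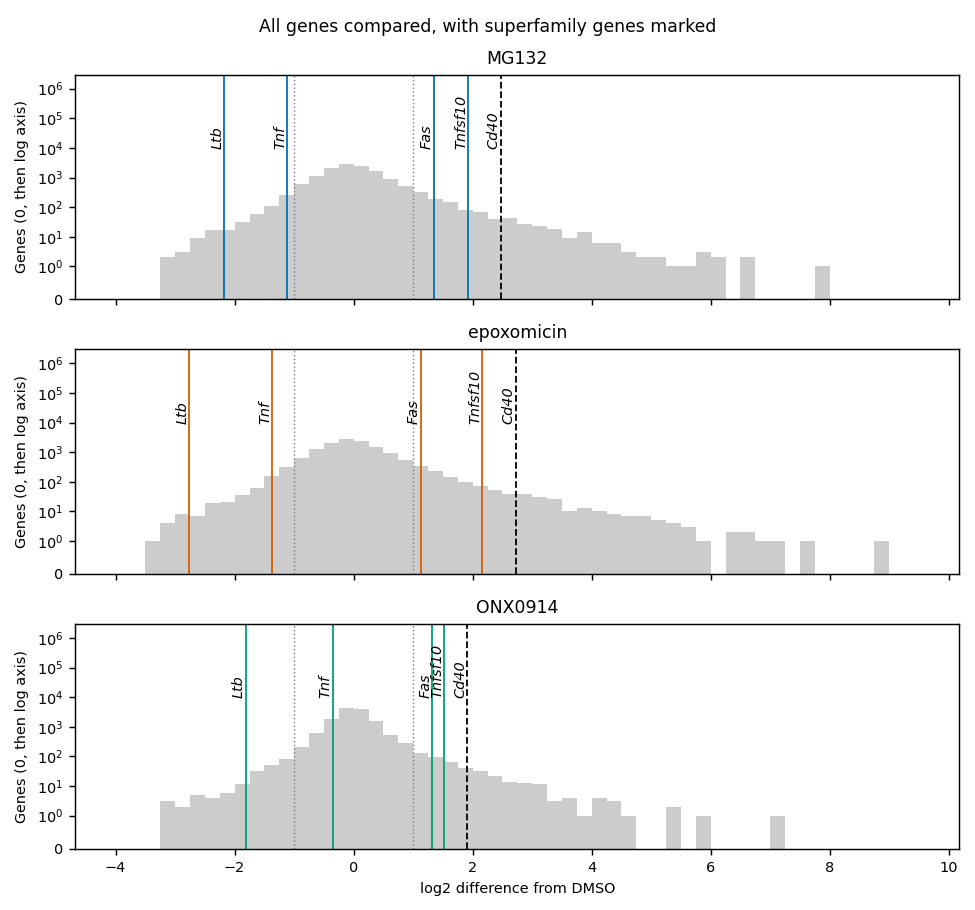
Number of genes (vertical axis, 0 and then a log axis) by difference from DMSO (horizontal axis, log2, bars of 0.25) with each inhibitor. Vertical lines mark *Ltb*, *Tnf*, *Fas* and *Tnfsf10* and, dashed, *Cd40*, and dotted lines mark 2-fold. *Ltb* lies in the thin lower tail in each panel, and *Tnf* lies nearer the center under ONX0914 (-0.36).

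A further 36 ligands and receptors of the superfamily were listed, of which 35 were named on the array and 21, 21 and 20 could be compared under MG132, epoxomicin and ONX0914. Of these, 0, 1 and 0 were at least 2-fold lower and 2, 3 and 1 higher, which is 0%, 4.76% and 0% lower and 9.52%, 14.3% and 5% higher. Among all genes compared the shares were 3.65%, 4.49% and 1.41% lower and 7.25%, 8.41% and 3.27% higher. The median differences of these other superfamily genes were 0.06, 0.14 and -0.10. *Cd40*, a receptor by which T cells activate macrophages, was the only one higher with all 3 inhibitors. Its signal was 1911 in DMSO, 9304 under MG132, 12850 under epoxomicin and 7017 under ONX0914, with differences of 2.47, 2.72 and 1.91, or 5.54-fold, 6.61-fold and 3.77-fold. These exceeded the differences of *Tnfsf10* and *Fas* on every inhibitor array. *Cd40lg*, its ligand, was not well above background on any array.

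The other genes of the superfamily past 2-fold with at least 1 inhibitor are named here after their values were seen. *Tnfsf18*, the ligand of the costimulatory receptor GITR, was not well above background in DMSO or ONX0914 (a signal of 8.56 or less) and gave 27.9 under MG132 and 47.5 under epoxomicin. It was at least 2.16-fold higher under MG132 and at least 3.18-fold higher under epoxomicin, taking the lowest signal well above background on the DMSO array as the bound. Both calls were lost with normexp without outlier spots (0.49 and 0.57 on the log2 scale), and that for MG132 also with no scaling (0.92). *Tnfrsf23*, a decoy receptor for TRAIL in the mouse, had a signal of 1166 in DMSO, 1415 under MG132, 2633 under epoxomicin and 892.6 under ONX0914. Its differences were 0.47, 1.15 and -0.35, with the epoxomicin array standing above the other 3. *Tnfrsf22* and *Tnfrsf26*, its closest relatives, differed by 0.55 and 0.47 under epoxomicin and by -0.31 and -0.22 under ONX0914. *Tnfrsf13b*, the receptor TACI for the B cell factors BAFF and APRIL, had a signal of 397.6 in DMSO, 193.2 under MG132, 179.9 under epoxomicin and 247.6 under ONX0914, and differed by -0.85, -1.17 and -0.65. Averaging its probes gave -0.39, -0.40 and -0.25, and normexp without outlier spots gave -0.95 under epoxomicin. Its call under epoxomicin thus rested on the choice of probe and on the background correction. Under MG132 it passed as lower with normexp (-1.06) and with no scaling (-1.04). *Tnfrsf9*, the receptor of the *Tnfsf9* product, differed by 0.01, 0.14 and 0.34.

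**Figure D4:**
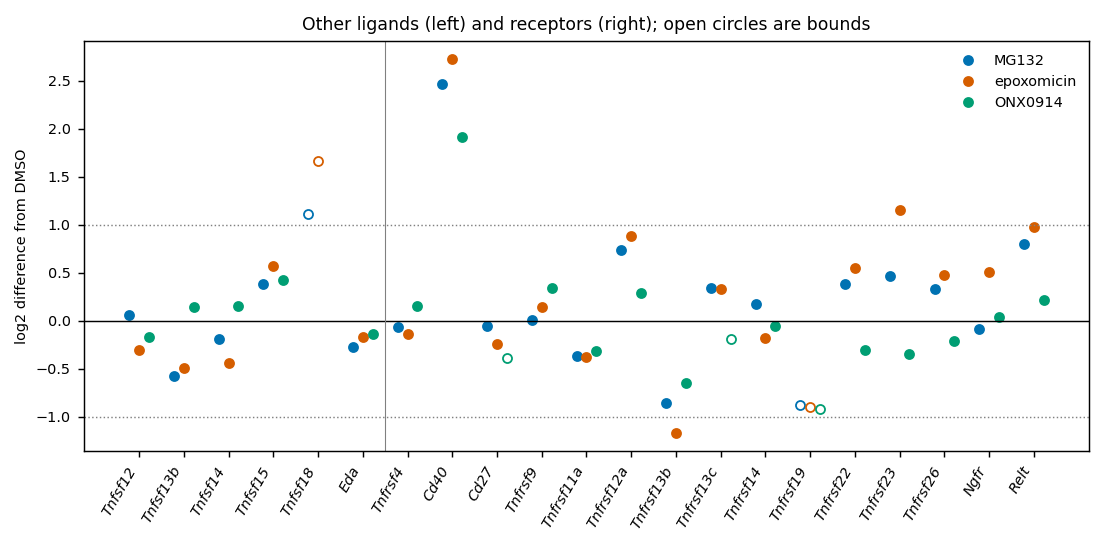
Difference from DMSO (vertical axis, log2) of the other TNF superfamily genes that could be compared, ligands left and receptors right, under MG132, epoxomicin and ONX0914. Open circles are bounds, where 1 array was not well above background, and dotted lines mark 2-fold. *Cd40* stands at 2.47, 2.72 and 1.91, and most of the others lie between the dotted lines.

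Of 25 genes that carry the signal from these receptors, all compared, none was lower and 2, 3 and 0 were higher under MG132, epoxomicin and ONX0914. These are 8%, 12% and 0% higher, beside 7.25%, 8.41% and 3.27% of all genes, and none passed with all 3. *Cflar*, which encodes the caspase-8 inhibitor cFLIP, differed by 1.39, 1.27 and 0.96. *Traf6*, an adaptor of CD40 signaling, differed by 1.07, 1.34 and 0.69, of which the first was 0.84 with normexp, 0.89 with no scaling and 0.97 with a median shift, and *Ripk1*, a kinase of the TNF receptor complex, by 0.91, 1.16 and 0.43. These 3 genes, named after their values were seen, were those past 2-fold. The median of the list was 0.15, 0.14 and 0.12.

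Genes known to act on the TNF transcript or to shed the protein included 1 higher and 1 lower gene of 9 (11.1% each) with each inhibitor, beside 3.65%, 4.49% and 1.41% lower and 7.25%, 8.41% and 3.27% higher among all genes. *Zfp36* encodes tristetraprolin, which binds AU-rich elements and speeds decay of *Tnf* mRNA. Its signal was 268.1 in DMSO, 1034 under MG132, 1591 under epoxomicin and 884.1 under ONX0914, so that all inhibitor arrays lay above DMSO, and its part in the level of *Tnf* was not tested. The differences were 2.13, 2.54 and 1.76 on the log2 scale. *Zfp36l2*, a relative that also binds AU-rich elements, had a signal of 25340 in DMSO, 6320 under MG132, 8377 under epoxomicin and 12150 under ONX0914, and differed by -1.82, -1.62 and -1.02. With normexp the differences of *Zfp36* were 1.24, 1.62 and 0.89, and that of *Zfp36l2* under ONX0914 was -0.87. Normexp without outlier spots gave no value for *Zfp36*. *Adam17*, the protease that releases TNF from the membrane, differed by -0.05, 0.10 and -0.22.

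*Tnf* is a target of NF-κB, and 10 other NF-κB targets were set beside it. None of them was at least 2-fold lower with any inhibitor, and 5, 4 and 3 were higher under MG132, epoxomicin and ONX0914. Over all genes compared, 3.65%, 4.49% and 1.41% were lower and 7.25%, 8.41% and 3.27% higher. The median differences of the 10 were 0.82, 0.82 and 0.33. They are a selection made with earlier results known and do not cover all NF-κB targets. *Ltb*, whose promoter window held the NF-κB consensus, is not among them and was lower (-2.17, -2.76 and -1.81). Whether *Tnf* differs from NF-κB targets in general was not tested. *Cxcl2*, a neutrophil chemokine, was higher by 3.75, 3.32 and 2.20, *Ptgs2*, which encodes cyclooxygenase-2, by 3.70, 3.71 and 2.13, and *Icam1*, an adhesion molecule, was 2.79-fold, 2.84-fold and 2.4-fold higher. With normexp *Icam1* differed by 0.78, 0.77 and 0.56 and was below 2-fold with each inhibitor, while *Cxcl2* and *Ptgs2* stayed beyond it. *Ccl3*, a chemokine, differed by 1.02, 0.99 and 0.24, and its call under MG132 held in only 3 of 9 other ways of processing. *Nfkbia*, which encodes IκBα, differed by 0.10, -0.39 and 0.47. *Il1b*, another cytokine of macrophages, differed by 1.43, 2.07 and -0.05, and by 0.57, 1.13 and -0.63 with normexp.

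*Ltb*, *Tnf* and *Lta* lie next to each other in the major histocompatibility complex, and in RefSeq order the neighboring protein-coding genes run from *Apom* to *Lst1* on one side and from *Nfkbil1* to *H2-Q1* on the other. *Lst1*, a leukocyte gene adjacent to *Ltb*, had a signal of 26710 in DMSO, 10830 under MG132, 12130 under epoxomicin and 17160 under ONX0914. Its differences were -1.12, -1.16 and -0.60. Thus 3 neighbors in a row, *Lst1*, *Ltb* and *Tnf*, were at least 2-fold lower under MG132 and epoxomicin, a run noted after the values were seen. *Ltb* and *Tnf* were picked for being lower, so only *Lst1* adds to it and nothing is read from the run. Among all genes compared, 3.65% and 4.49% were lower with these inhibitors. Averaging the probes of *Lst1* gave -0.79, -0.90 and -0.44, and normexp gave -0.96 under MG132. *Aif1*, the next gene and a marker of macrophages, differed by -0.71, -0.64 and -0.32. Beyond *Lta*, *Nfkbil1* differed by 0.07, -0.23 and -0.23, and *Atp6v1g2* by -0.76, -0.57 and -0.26 at a faint signal (-1.36, -1.52 and -1.18 with normexp). *Bag6* and *Ddx39b* stayed within 0.24 of DMSO. *H2-D1* differed by 0.30, 0.25 and 0.23, and *H2-Q1*, at a faint signal, by 0.91, 0.65 and 0.55 (-1.02, -1.32 and -1.41 with normexp). *Prrc2a* had a signal of 3497 in DMSO, 2806 under MG132, 643.2 under epoxomicin and 1707 under ONX0914. It differed by -0.13, -2.47 and -0.998, and the last stayed below 2-fold in only 4 of 9 other ways of processing. *Apom* was faint (58.3 in DMSO) and differed by 1.25, 1.41 and 0.25, which turned to -0.30 and -0.39 with normexp for the first pair of inhibitors. The genes beside *Tnf* therefore showed no direction common to the whole stretch.

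**Figure D5:**
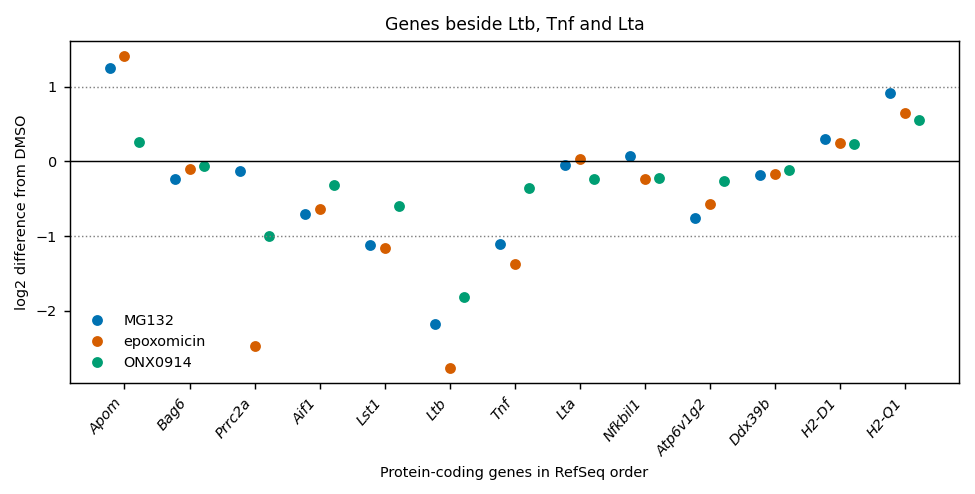
Difference from DMSO (vertical axis, log2) of the protein-coding genes beside *Ltb*, *Tnf* and *Lta*, in RefSeq order along the horizontal axis and not to scale, under MG132, epoxomicin and ONX0914. Dotted lines mark 2-fold. *Lst1*, *Ltb* and *Tnf* lie next to each other below the lower dotted line under MG132 and epoxomicin, the last 2 having been picked for being lower. *Prrc2a* also lies below that line under epoxomicin (-2.47). *Bag6*, *Prrc2a*, *Aif1*, *Atp6v1g2* and *Ddx39b* lie below 0 with each inhibitor. *Lta* lies near 0, and its values with normexp (-1.13, -1.22 and -1.35) are not drawn.

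The profiles most like those of *Tnf* and *Ltb* were sought among the 12730 genes well above background on all 4 arrays, as the smallest Euclidean distance over the 3 differences. For *Tnf* these were *Lgals4* (distance 0.0568), *Spata13* (0.0861) and *Nfkbid* (0.0864). *Nfkbid*, which encodes a nuclear IκB protein, differed by -1.17 under MG132, -1.41 under epoxomicin and -0.41 under ONX0914. For *Ltb* these were *B3gnt7* (0.295), *C130050O18Rik* (0.406) and *Mxd3* (0.416). *B3gnt7*, the nearest, differed by -2.35, -2.66 and -1.60, which came to -0.95, -1.34 and -0.97 with normexp without outlier spots. The same setting gave -0.70, -0.94 and -0.21 for *Lgals4*. The distances to *Ltb* were larger than those to *Tnf*, with fewer genes at differences of that size.

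Of the macrophage markers, 7 of 8 were named and all 7 passed the background call on the 4 arrays. Their signals in DMSO ran from 440 (*Adgre1*) to 210800 (*Csf1r*). Their median differences were -0.13, -0.05 and -0.03, and *Lyz2*, which encodes lysozyme, differed by -0.60, -1.01 and 0.13, on the same side as *Tnf* under MG132 and epoxomicin, and the part of either in the other was not tested. Of the T and NK cell markers, *Cd3e* was measured at 849.5 in DMSO and 603.8 to 791.9 with the inhibitors, while *Cd3g*, *Cd8a* and *Ncr1* were not well above background on any array. None of the B cell, mast cell and epithelial markers was. Of the other markers, *Col1a2* had faint signals of 61.2 to 85.6 and *Cdh5* of 36.1 to 43.9.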

How the data were processed

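RNA of 4 cultures of J774.1 cells was measured on 4 arrays of 1 slide. The authors deposited Feature Extraction 10.7.1.1 output, in which the intensity of each spot is given before and after background subtraction, with no scaling between arrays. A second deposited table by the authors holds log2 values, each relative to the median of the probe over the arrays, which served as an alternative. The Methods name a human design, whereas the file headers describe a mouse design. Probes were therefore named through their transcript accession in the RefSeq table of GRCm38.p6, by which 26581 of 39429 probes received 1 of 20144 gene symbols. The headers give mm9 as their build, and their coordinates were not used. *Tnfsf13* and *Cd68* received no probe in this way.

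Control spots and spots whose own signal was marked as an outlier (159 to 194 per array) were left out. Spots whose local background was marked as an outlier were kept, except in the setting called normexp without outlier spots. The 75th percentile of each array was subtracted from log2 of the processed signal, spots of a probe were averaged, and a gene was represented by its probe with the highest mean. Depth has no equal on arrays, and the single array per group limits the precision. Of the spots, 60.3% to 63.1% were well above background. A comparison took in genes above background by the software's call on 1 or both arrays of the pair, and where 1 array fell short, the higher of the gene's own signal and the lowest signal well above background (14.7 to 20.4) gave a bound. The script was tested on simulated data. Python 3.11.15, pandas 2.3.3, R 4.3.3 and limma 3.58.1 (normexp, offset 50) were used.

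The members and the lists were chosen with earlier results of these data known. Genes named are the members, listed genes past 2-fold with all 3 inhibitors, and the 3 nearest profiles to *Tnf* and *Ltb*, and others are said to be named after their values were seen or serve as background to a member. Locus neighbors, markers and further NF-κB targets are described as lists. Alternatives were quantile normalization, normexp background correction, no scaling, a median shift, the percentile over detected probes, the value table, the mean over probes, the processed signal in place of bounds and other thresholds.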

Additional observations from a re-analysis of the deposited data

How the results depend on the processing

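*Ltb* stayed at least 2-fold lower with every inhibitor in 9 other ways of processing (-2.36 to -2.00 with MG132, -2.83 to -2.55 with epoxomicin and -1.86 to -1.65 with ONX0914), as did *Fas* higher (1.16 to 1.35, 1.06 to 1.15 and 1.23 to 1.32). *Tnf* ranged from -1.30 to -0.95 with MG132, the last with normexp, from -1.44 to -1.22 with epoxomicin and from -0.40 to -0.21 with ONX0914. The 2-fold difference of *Tnf* between ONX0914 and epoxomicin ranged from 0.96 to 1.08 and passed in 5 of the 9. Normexp moved the median of all genes to -0.27, -0.30 and -0.17, and no scaling moved it to -0.20 with MG132. Normexp without outlier spots, an alternative chosen after seeing the data, left it at -0.00, -0.02 and 0.01, and with it *Lta* was 0.14, 0.09 and -0.04 and *Tnfsf10* 1.61, 1.85 and 1.30.

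With normexp 1 member was higher with MG132, and 3 were lower and 1 higher with ONX0914. *Lta* (-1.13, -1.22 and -1.35) then passed as lower with every inhibitor, epoxomicin included, and *Tnfrsf10b* (-1.06) with ONX0914. At a 4-fold threshold 1 member was lower and 0 higher with MG132, 1 and 1 with epoxomicin and 0 and 0 with ONX0914. Of the other superfamily genes, normexp gave 6 lower and 1 higher with MG132, 6 lower with epoxomicin and 5 lower with ONX0914. Normexp without outlier spots gave 1 higher with MG132 and 0 lower with epoxomicin. No scaling gave 2 lower and 1 higher with MG132, the deposited log2 values gave 1 lower with MG132 and 1 with ONX0914, the mean over probes 0 lower with epoxomicin, processed signals in place of bounds 1 lower with ONX0914, and genes well above background on all 4 arrays 1 higher with MG132. A 1.5-fold threshold gave 2 lower and 4 higher with MG132, 2 and 5 with epoxomicin and 2 lower with ONX0914, and a 4-fold threshold 1 higher with MG132, 0 lower and 1 higher with epoxomicin and 0 higher with ONX0914. *Apom*, at 1.25 and 1.41 with MG132 and epoxomicin, came to -0.30 and -0.39 with normexp. The cause of these changes was not tested. The share of all genes called is given only for the values reported above at 2-fold, so nothing is read from the counts at other settings. No replicate could be left out, and no paired analysis was possible because each group had 1 array.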
